A study of Mus musculus with 9 samples.

Results

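The YAP and TEAD genes examined were chosen by name from knowledge of the pathway, with earlier results of these data known. They are 10 rows of a counts table of 24062 gene symbols. They were the coactivators Yap1 and Wwtr1 (which encodes TAZ), Tead1, which encodes a DNA-binding partner, and 7 known targets or regulators of these factors. The 7 were Ctgf, Cyr61, Ankrd1, Amotl1, Amotl2, Lats2 and Axl. All 10 passed the filter on low counts, as did 14223 genes in all. RNA-seq was performed on mouse embryonic fibroblasts (primary connective tissue cells grown from embryos) of strain C57BL/6 on day 4 after lentiviral infection. The control group received the empty vector, the p21 group a lentivirus for p21 (Cdkn1a), and the p16 group one for p16 (Cdkn2a), and both proteins are inhibitors of cyclin-dependent kinases. Each group held 3 libraries. The titles of the p21 and p16 libraries call them non-senescent, and those of the controls do not use the word. All 3 groups share the lentiviral infection. Which promoter drove the delivered genes, and whether the libraries came from separate embryos or cultures, is not given in the sources used here. The p-values therefore measure only the spread between these libraries, part of which may be technical. The replicate 3 libraries differed from the others in Xist in all 3 groups, as given below.

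The libraries held 44455730 to 63152239 counted reads. Cdkn1a stood at 1605 CPM (the read count relative to the TMM-scaled library total) in the p21 libraries against 360.2 CPM in the controls, and Cdkn2a at 1731 CPM in the p16 libraries against 37.9 CPM, as the labels state. The sum of 10 fibroblast markers, led by Col1a1, ran from 27985 to 31792 CPM in the controls. It ran from 31335 to 33251 CPM in the p21 libraries and from 31617 to 34164 CPM in the p16 libraries. By edgeR (adjusted p under 0.05), 4 of the 10 rose with p21 and 2 fell, while 39.9% of all genes were called. Pdgfra fell from 33.5 to 16.8 CPM (edgeR adjusted p = 9.16e-04) and Col3a1 from 1756 to 1403 CPM (edgeR adjusted p = 0.00338). With p16, 0 of the 10 passed (5 at an unadjusted p under 0.05). The replicate 3 libraries of all 3 groups stood apart in carrying Xist, the transcript of X inactivation, at 181 to 251 CPM against at most 6.96 CPM in the other libraries. In such bulk samples, fewer cells of a type and less RNA per cell cannot be told apart.

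YAP and TAZ are coactivators that bind no DNA themselves and act in the nucleus through TEAD factors. The Hippo kinases, with LATS kinases at the end of the cascade, phosphorylate both proteins, which holds them in the cytoplasm or sends them to degradation. In fibroblasts the pathway is known for its response to stiffness, spreading and cell density, and because it acts largely through the location of the proteins, transcript levels of Yap1 and Wwtr1 do not measure its activity.

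With p21, 9 of the 10 genes rose against the empty vector, by 8.91% to 61.5% of the control mean, and Tead1 did not pass the test. With p16, 5 rose: Ankrd1, Amotl2, Ctgf, Cyr61 and Yap1. With the replicate number added to the fit as a block, 7 rose with p16, Lats2 and Axl being the others. The block also raised the share of all genes called with p16 from 11.4% to 21.4%. Ankrd1 had the largest change of the 10 in both comparisons and was also higher with p21 than with p16. The changes of the other genes were small, with log2 fold changes of at most 0.26 with p21 and 0.20 with p16.

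**Figure D1:**
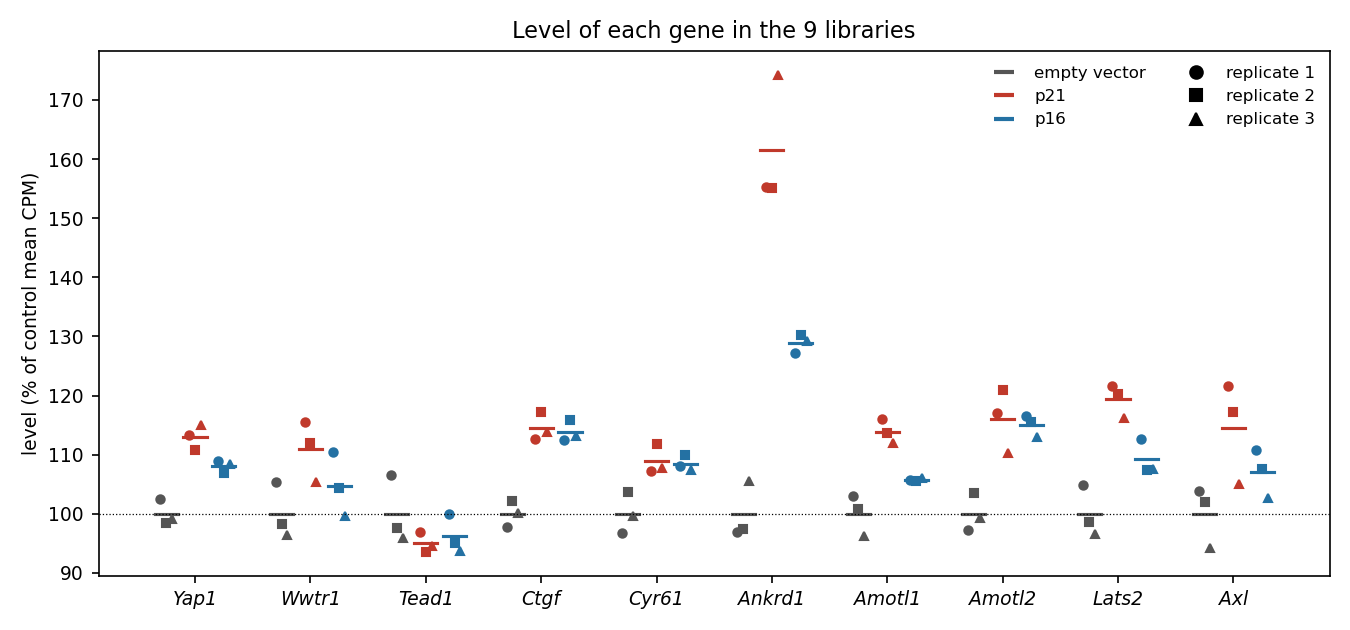
Level of each of the 10 genes in every library, as a percentage of the mean CPM of the 3 empty-vector libraries. Points are libraries, with the replicate number given by the shape, and bars are group means. The Ankrd1 points of the 3 groups lie apart, while the Tead1 points of the 3 groups overlap.

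These counts were read against all genes. In p21 against the empty vector, 39.9% of the 14223 genes passed edgeR's quasi-likelihood test (Benjamini-Hochberg threshold 0.05), 2816 of them higher (19.8%) and 2865 lower (20.1%). All p21 libraries lay above all control libraries for 9 of the 10 genes and for 24.2% of all genes, and 49.1% of all genes did not overlap in either direction. Scaled by library totals alone, the calls split into 2173 higher and 3734 lower. The median log2 fold change was 0.19 over the 10 genes and 0.0011 over all genes. All 10 genes are abundant, and the share of calls was higher among abundant genes. Of the 1977 genes of mean level above 100 CPM, 33% were called higher with p21. In p16 against the empty vector 11.4% of all genes were called, 825 higher (5.8%) and 791 lower (5.56%), or 617 and 1235 with library totals alone, and 13.6% of the abundant genes were called higher. All p16 libraries lay above all controls for 7 of the 10 genes, against 16.1% of all genes (32.7% without overlap in either direction). The median over the 10 genes was 0.11 with p16, against 0.0017 over all genes. Both comparisons use the same control libraries, so they are not independent of each other.

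The coactivators were measured first. Yap1, on chromosome 9 (7931999 to 8004596, minus strand, GRCm38), stood at 238, 228 and 230 CPM in control replicates 1, 2 and 3, at 263, 257 and 267 CPM with p21 and at 253, 248 and 251 CPM with p16. The libraries of the 3 groups did not overlap, with p21 highest and the controls lowest. Yap1 rose with p21 by 0.18 ± 0.030 on the log2 scale (SE, n = 3 per group, edgeR adjusted p = 5.05e-04) and with p16 by 0.11 ± 0.030 (edgeR adjusted p = 0.0303). The p16 call was lost with library totals alone, without the filter on low counts, with replicates 1 and 2 alone, and without control replicate 2 or 3 or any single p16 library (highest edgeR adjusted p = 0.135).

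Wwtr1, on chromosome 3 (57455649 to 57575910, minus strand), encodes TAZ, the paralog of YAP. It stood at 142.8, 133 and 131 CPM in the controls, at 157, 152 and 142.9 CPM with p21 and at 149.7, 141 and 135 CPM with p16. The lowest p21 library was level with the highest control library, and replicate 3 was the lowest of its group each time. Wwtr1 rose with p21 by 0.15 ± 0.049 (edgeR adjusted p = 0.0291) and differed with p16 by 0.067 ± 0.049 (edgeR adjusted p = 0.430). The p21 call was lost with library totals alone and without control replicate 2 or 3 or p21 replicate 1 or 2 (highest edgeR adjusted p = 0.123).

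Tead1, on chromosome 7 (112679318 to 112906807, plus strand), encodes one of the TEAD factors through which YAP and TAZ reach DNA. Its level was 412, 377 and 371 CPM in the controls, 375, 362 and 366 CPM with p21 and 387, 367 and 362 CPM with p16, so the groups overlapped. The log2 fold change was -0.073 with p21 (95% confidence interval -0.16 to 0.016, edgeR adjusted p = 0.180) and -0.055 with p16 (interval -0.14 to 0.034, edgeR adjusted p = 0.440). Tead1 was lower than in the control library of the same replicate number in all 3 pairs with p21 and in all 3 with p16. With library totals alone as the scaling, Tead1 was called lower with p21 (-0.12, edgeR adjusted p = 0.0290).

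Of the other DNA-binding and cofactor genes of this kind, 5 of 7 were tested. With p21, 40% of the 5 were called, 1 higher and 1 lower, against 39.9% of all genes. Tead2, a TEAD factor, fell with p21 from 105 to 91.4 CPM (-0.19 ± 0.045, edgeR adjusted p = 0.00423), and Vgll3, a TEAD cofactor, rose from 191 to 204 CPM (0.095 ± 0.033, edgeR adjusted p = 0.0380). The Vgll3 call was lost under 10 of 18 alternatives, library totals alone among them (log2 fold change 0.046). With p16, 0 of these 5 genes passed by edgeR, by DESeq2 or by limma-voom, and at an unadjusted p of 0.05 the count by edgeR was also 0. Tead4 differed with p21 by 0.26 ± 0.099 (edgeR adjusted p = 0.0518), and with the replicate number as a block it passed (edgeR adjusted p = 0.0128), as it did under 5 other alternatives, DESeq2 among them (adjusted p = 0.0363). In p21 against p16, 0 of the 5 passed by edgeR, DESeq2 or limma-voom (3 at an unadjusted p under 0.05). With the block, Tead2 (-0.12, edgeR adjusted p = 0.0231) and Tead3 (-0.13, edgeR adjusted p = 0.0462) were lower with p21 than with p16.

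Promoter sequence is shown for 3 target genes that rose with both inhibitors, since TEAD factors bind the motif GGAATG. The RefSeq table (GRCm38.p6) gave promoter windows for 8 of the 10 genes, and Tead1 and Ctgf had none in it. Each window runs from 250 bases before to 50 after a transcription start. The 250 bases before the start are printed 5′ to 3′ on the strand of the gene, with GGAATG, or CATTCC where the motif lies on the opposite strand, in capitals.

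Ankrd1 (chr19:36119845-36120094, strand minus): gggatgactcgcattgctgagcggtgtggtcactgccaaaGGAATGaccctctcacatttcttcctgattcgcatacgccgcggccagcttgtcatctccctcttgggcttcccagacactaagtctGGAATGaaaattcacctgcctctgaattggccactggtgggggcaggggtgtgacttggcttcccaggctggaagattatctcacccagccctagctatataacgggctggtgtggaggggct

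Cyr61 (chr3:145649986-145650235, strand minus): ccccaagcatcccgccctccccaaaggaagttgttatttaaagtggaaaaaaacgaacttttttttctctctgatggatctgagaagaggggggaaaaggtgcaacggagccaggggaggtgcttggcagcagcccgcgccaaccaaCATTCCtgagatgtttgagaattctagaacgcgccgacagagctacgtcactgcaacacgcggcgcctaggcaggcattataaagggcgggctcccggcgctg

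Amotl2 (chr9:102717554-102717803, strand plus): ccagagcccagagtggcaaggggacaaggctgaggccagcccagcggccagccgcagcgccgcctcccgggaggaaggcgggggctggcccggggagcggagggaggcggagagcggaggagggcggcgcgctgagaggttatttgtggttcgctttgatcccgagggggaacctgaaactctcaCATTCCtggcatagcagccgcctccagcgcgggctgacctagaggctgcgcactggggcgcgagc

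The Ankrd1 window held 2 copies of GGAATG, with first bases at -210 and -123 from the start, and 1.36% of all 32851 windows held 2 or more. The Cyr61 and Amotl2 windows each held 1 copy on the opposite strand, at -103 and -65. The 8 genes had 10 windows, of which 8 held a copy on either strand, against 14.7% of all windows. The 2 Wwtr1 windows overlap and hold the same copy, so that site is counted in both. Of the 8 genes, Amotl1 alone had no copy in any window. No window of these 8 genes held a CArG box, the motif of serum response factor, which 1.63% of all windows held. These are matches of letters, and no binding was measured. The genes were chosen for their known ties to TEAD factors, so their share of windows with GGAATG is no independent support for such ties.

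Ankrd1 encodes a muscle ankyrin repeat protein and is a sensitive YAP target in fibroblasts, on chromosome 19 (36111961 to 36120099, minus strand). It stood at 254, 255 and 277 CPM in the controls, at 407, 406 and 457 CPM with p21 and at 333, 341 and 339 CPM with p16. No libraries of different groups overlapped, in the order controls, p16, p21. The mean was 1.62-fold that of the controls with p21 (log2 fold change 0.69 ± 0.047, SE, edgeR adjusted p = 4.91e-07) and 1.29-fold with p16 (0.37 ± 0.047, edgeR adjusted p = 7.18e-04). It was higher in 3 of 3 replicate pairs in each comparison. By size of the rise, Ankrd1 ranked 792 of 14223 genes with p21 and 1095 with p16. Both calls were kept in all 18 alternatives. Of 10 skeletal and cardiac muscle markers, 2 of the 5 tested rose in both comparisons, Acta1 and Des. Of all genes, 19.8% were called higher with p21 and 5.8% with p16. The sum of all 10 markers, led by Acta1, ran from 222 to 229.7 CPM in the controls. It ran from 592 to 678 CPM in the p21 libraries and from 332 to 349.9 CPM in the p16 libraries. The part of these markers in the Ankrd1 result was not tested. Myod1, Myog, Ttn, Nkx2-5, Myh6, Actc1 and Ckm were under 1 CPM in every library, and Ckm was at 0 counts. Ankrd23, another gene of the ankyrin repeat family, changed by 0.27 with p21 (edgeR adjusted p = 0.399) and did not pass.

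Ctgf and Cyr61 encode secreted matricellular proteins of the CCN family and are the most used readouts of YAP activity. Ctgf, on chromosome 10 (24595442 to 24598683, plus strand), stood at 2866, 2991 and 2931 CPM in the controls, at 3302, 3433 and 3336 CPM with p21 and at 3293, 3396 and 3317 CPM with p16. Every p21 and p16 library lay above every control library, and the p21 and p16 libraries overlapped. Ctgf rose by 0.20 ± 0.032 with p21 (edgeR adjusted p = 4.08e-04) and by 0.19 ± 0.032 with p16 (edgeR adjusted p = 0.00347), and both calls were kept in all 18 alternatives. A gene annotated on the opposite strand, Gm15270, shares 23.2% of the exon bases of Ctgf, and the library kit does not separate strands.

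Cyr61, on chromosome 3 (145646976 to 145649981, minus strand), encodes a close relative of the Ctgf protein. Its level was 909.8, 974 and 937 CPM in the controls, 1009, 1051 and 1013 CPM with p21 and 1016, 1034 and 1009.5 CPM with p16. The controls lay below all other libraries. Cyr61 rose by 0.12 ± 0.033 with p21 (edgeR adjusted p = 0.0101) and by 0.12 ± 0.033 with p16 (edgeR adjusted p = 0.0383). The p21 call was lost with library totals alone (edgeR adjusted p = 0.0991). The p16 call was lost there, with replicates 1 and 2 alone, and without control replicate 1 or 3 or any single p16 library (highest edgeR adjusted p = 0.144).

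Of the 3 other CCN genes tested, 1 passed against the controls, with p21 (33.3%, against 39.9% of all genes). Nov fell with p21 from 17.1 to 10.7 CPM (-0.67 ± 0.17, edgeR adjusted p = 0.00724). Wisp1 differed with p21 by -0.081 (edgeR adjusted p = 0.167), and with the block (adjusted p = 0.0319) or library totals alone (adjusted p = 0.0270) it was called lower. Wisp2 differed by -0.099 (edgeR adjusted p = 0.308) and was called lower with replicates 1 and 2 alone or without control replicate 3 (edgeR adjusted p = 0.00756). With p16, 0 of the 3 passed by edgeR (2 at an unadjusted p under 0.05, 1 by DESeq2). With the block, Nov (-0.37, edgeR adjusted p = 2.26e-04) and Wisp2 (-0.20, edgeR adjusted p = 0.00852) were lower and Wisp1 (0.093, edgeR adjusted p = 0.0334) higher with p16. The block also made Nov lower with p21 than with p16 (-0.30, edgeR adjusted p = 0.00261). Wisp1 was lower with p21 than with p16 (280 against 315 CPM, edgeR adjusted p = 0.0237), a call lost without p21 replicate 1 or 2 or any single p16 library (highest edgeR adjusted p = 0.0759).

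The angiomotin family genes Amotl1 and Amotl2 encode scaffold proteins that bind YAP and hold it at junctions and actin, and Amotl2 is itself a YAP target. Amotl2, on chromosome 9 (102716672 to 102733418, plus strand), stood at 427, 455 and 436 CPM in the controls, at 514, 531 and 484 CPM with p21 and at 512, 508 and 497 CPM with p16. The controls were below all 6 other libraries. It rose by 0.21 ± 0.038 with p21 (edgeR adjusted p = 7.06e-04) and by 0.20 ± 0.038 with p16 (edgeR adjusted p = 0.00542), and both calls were kept in all 18 alternatives.

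Amotl1, also on chromosome 9 (14541966 to 14645056, minus strand), stood at 188, 184 and 176 CPM in the controls, at 212, 207 and 204 CPM with p21 and at 192.7, 192.6 and 193 CPM with p16. The 3 groups did not overlap, with p16 between the others. The rise passed with p21 (0.19 ± 0.032, edgeR adjusted p = 6.15e-04), and with p16 the difference did not (0.080 ± 0.032, edgeR adjusted p = 0.135). Amot, the founding gene of the family, rose with p21 from 64.5 to 86.1 CPM (0.42 ± 0.053, edgeR adjusted p = 6.50e-05) and with p16 to 73.3 CPM (0.19 ± 0.053, edgeR adjusted p = 0.0429). The p16 call of Amot was lost with library totals alone and without p21 replicate 1, p16 replicate 1 or 2 or any single control library (highest edgeR adjusted p = 0.154).

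Lats2 encodes a kinase that phosphorylates YAP and TAZ and is a YAP target, so it forms a negative feedback. The gene lies on chromosome 14 (57689662 to 57758388, minus strand), and the annotated gene Gm49361 shares 42.4% of its exon bases on the same strand. Lats2 stood at 129, 122 and 119 CPM in the controls, at 149.97, 148 and 143 CPM with p21 and at 139, 132.5 and 132.6 CPM with p16. The groups did not overlap, with p16 again between the others. It rose with p21 by 0.26 ± 0.040 (edgeR adjusted p = 2.87e-04). With p16 the difference was 0.13 ± 0.040 (edgeR adjusted p = 0.0588), which passed with the replicate number as a block (edgeR adjusted p = 0.00833), with DESeq2 (adjusted p = 0.0318), with only the 2 groups fitted, and without control replicate 1 or p21 replicate 3.

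Axl encodes a receptor tyrosine kinase of the TAM family, on chromosome 7 (25757273 to 25788705, minus strand). It stood at 1056, 1037 and 958 CPM in the controls, at 1236, 1192 and 1067 CPM with p21 and at 1127, 1093 and 1044 CPM with p16. Replicate 3 was the lowest library of each group, and the p16 and control libraries overlapped. Axl rose with p21 by 0.20 ± 0.054 (edgeR adjusted p = 0.0117), a call lost without control replicate 3 (edgeR adjusted p = 0.0569) or p21 replicate 1 (edgeR adjusted p = 0.0578). With p16 the difference was 0.098 ± 0.054 (edgeR adjusted p = 0.278), and with the replicate number as a block it passed (edgeR adjusted p = 0.0128).

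Of 4 genes for the other TAM receptors and their ligands, 1 was called in each comparison (25%). Of all genes, 39.9% were called with p21, 11.4% with p16 and 13.1% in p21 against p16. Gas6, which encodes a ligand of these receptors, rose with both inhibitors. It stood at 97.2, 88.2 and 88.9 CPM in the controls, at 155, 137 and 167 CPM with p21 and at 128, 113 and 124 CPM with p16. It rose by 0.75 ± 0.069 with p21 (edgeR adjusted p = 4.80e-06) and by 0.41 ± 0.069 with p16 (edgeR adjusted p = 0.00302), and was higher with p21 than with p16 (0.33 ± 0.068, edgeR adjusted p = 0.00735). The other receptor genes Tyro3 and Mertk and the ligand gene Pros1 did not pass in any comparison, except that Pros1 was called lower with p21 with replicates 1 and 2 alone and without p21 replicate 3 (edgeR adjusted p = 0.0409). Macrophages also express TAM receptors, and the summed level of leukocyte markers was higher in the p21 libraries than in the controls. The sum of 12 macrophage and leukocyte markers, led by Lyz2, ran from 25.3 to 37.4 CPM in the controls, from 41.8 to 55.9 in the p21 libraries and from 32.3 to 56.9 in the p16 libraries. By edgeR 7 of the 12 rose with p21 and 0 with p16 (4 at an unadjusted p under 0.05, 2 by DESeq2, 0 by limma-voom). With a library left out, the count with p21 ran from 2 to 8. Of all genes, 19.8% were called higher with p21 and 5.8% with p16. Ptprc and Cd52 were under 1 CPM in every library. The part of these cells in the Axl and Gas6 results was not tested.

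**Figure D2:**
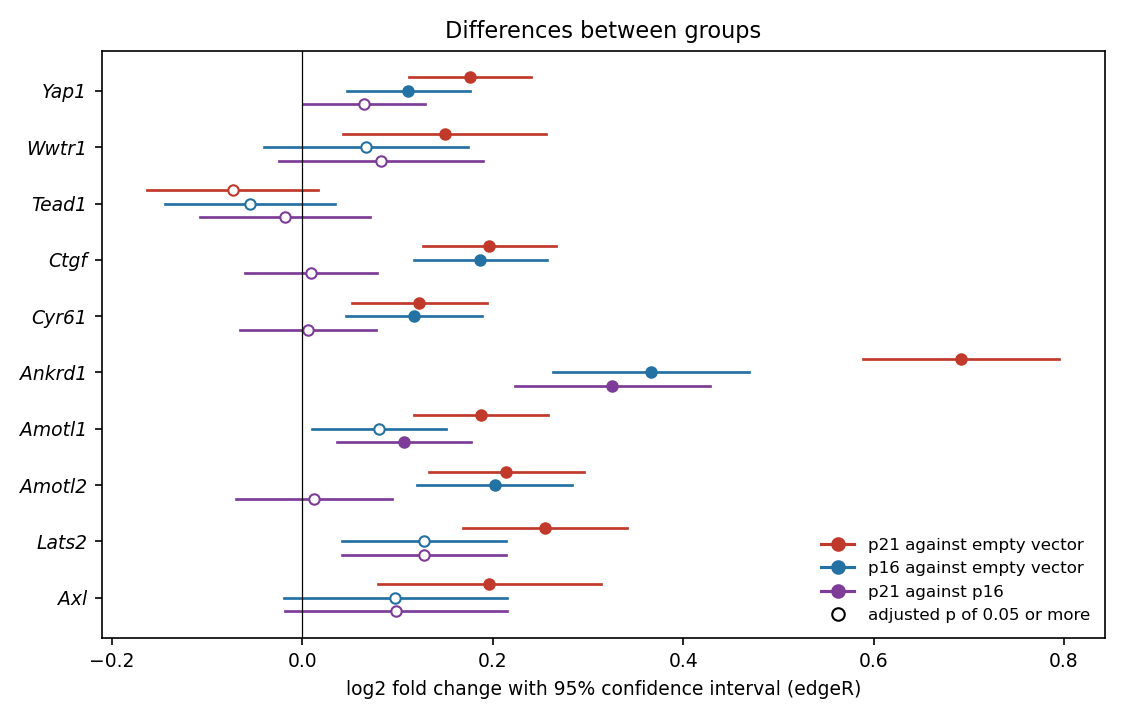
Log2 fold change of each of the 10 genes in the 3 comparisons, with 95% confidence intervals from the edgeR fit of all 9 libraries. Filled points passed at an adjusted p under 0.05. Ankrd1 stands apart at 0.69 with p21, and the intervals of Tead1 include 0 in all 3 comparisons.

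The direct comparison of p21 with p16 tests whether the effects of both inhibitors differed. Of the 10 genes, 2 were higher with p21, Ankrd1 and Amotl1, while 13.1% of all genes passed, 875 higher (6.15%) and 983 lower (6.91%), or 735 and 1254 with library totals alone. All p21 libraries lay above all p16 libraries for 4 of the 10, Yap1, Ankrd1, Amotl1 and Lats2, against 14.9% of all genes (31.2% without overlap in either direction). Among the genes above 100 CPM, 13.9% were called higher. Ankrd1 was 1.25-fold higher with p21 (0.33 ± 0.047, edgeR adjusted p = 8.28e-04), a call kept in all 18 alternatives. Amotl1 differed by 0.11 ± 0.032 (edgeR adjusted p = 0.0469), and this call was lost under 11 of 18 alternatives, among them every single p16 library left out (highest edgeR adjusted p = 0.172, without p21 replicate 1).

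With the replicate number as a block, 4 of the 10 genes were higher with p21 than with p16. The block also raised the share of all genes called in this comparison from 13.1% to 22.6%, with 1566 genes higher. Lats2 (0.13 ± 0.040, edgeR adjusted p = 0.0522 without the block) reached an adjusted p of 0.00716, and Axl (0.099 ± 0.054, edgeR adjusted p = 0.266 without the block) reached 0.0132. Lats2 also passed with DESeq2, with limma-voom and without control replicate 1 or 3 or p21 replicate 3, and Axl with replicates 1 and 2 alone and without p21 replicate 3. Yap1 (0.065, edgeR adjusted p = 0.178) and Wwtr1 (0.082, edgeR adjusted p = 0.311) did not pass.

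For Ctgf, Cyr61 and Amotl2 no difference between p21 and p16 was detected, and the direction of each estimate changed with the scaling. The difference was 0.0093 for Ctgf (95% confidence interval -0.060 to 0.079, edgeR adjusted p = 0.896), 0.0058 for Cyr61 (-0.065 to 0.077, edgeR adjusted p = 0.942) and 0.013 for Amotl2 (-0.069 to 0.094, edgeR adjusted p = 0.878). Tead1 differed by -0.018 (-0.11 to 0.071, edgeR adjusted p = 0.831).

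Levels of different genes were compared per kilobase of annotated exon. In the controls Ctgf was highest at 1024 ± 21.9 CPM per kb (SD, n = 3), followed by Cyr61 at 466 ± 16, Axl at 202 ± 10.3, Ankrd1 at 90.8 ± 4.38 and Amotl2 at 69.9 ± 2.27 CPM per kb. The factors themselves were lower, with Tead1 at 28.5 ± 1.62, Wwtr1 at 28.4 ± 1.33 and Yap1 at 25.0 ± 0.536 CPM per kb. Amotl1, at 18.1 ± 0.613, and Lats2, at 17.7 ± 0.758 CPM per kb, were lowest. The place of Lats2 is uncertain, since over only the exon bases that it does not share with Gm49361 its value would be 30.7 CPM per kb, above those of Tead1, Wwtr1 and Yap1. In this order the libraries of Tead1 and Wwtr1 overlapped, as did those of Amotl1 and Lats2, and all other neighbours lay apart. The order of the 5 highest genes was the same in all 3 groups. With p21, Wwtr1 (31.5 ± 1.46) and Yap1 (28.3 ± 0.532) both lay above Tead1 (27.1 ± 0.500 CPM per kb).

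**Figure D3:**
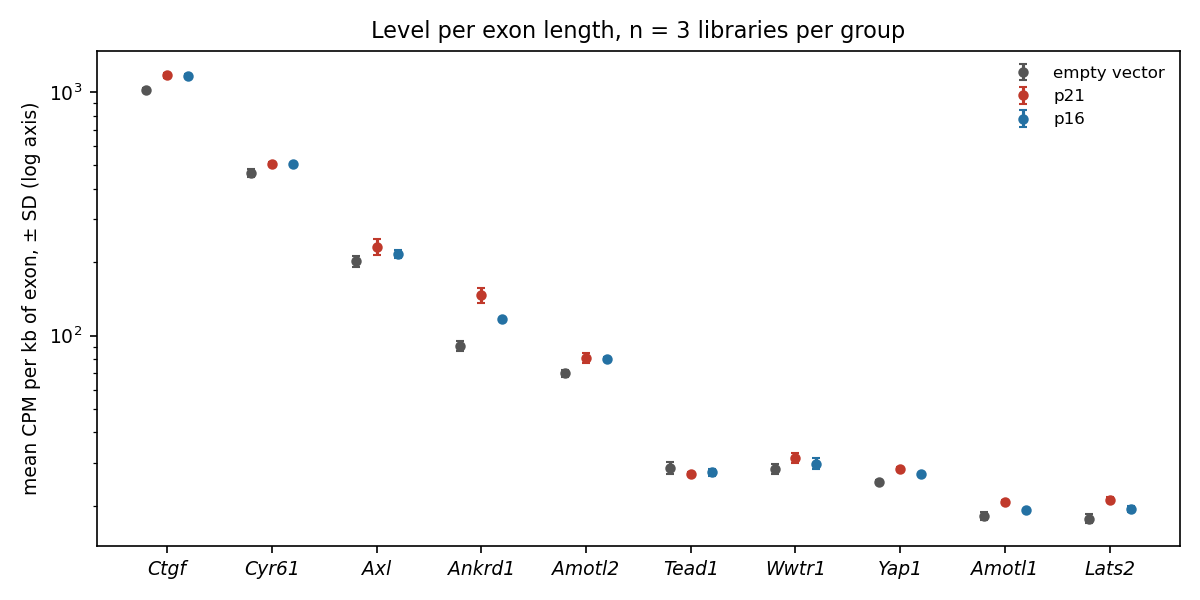
Mean CPM per kilobase of exon of the 10 genes in each group on a log axis, with SD over 3 libraries. Ctgf and Cyr61 lie above the other genes, and Ankrd1 moves from 90.8 in the controls to 147 CPM per kb with p21.

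A wider list of published YAP and TAZ targets held 16 further genes, all tested. With p21, edgeR called 8 higher and 0 lower (9 higher and 0 lower at an unadjusted p under 0.05, with 8 and 0 also by DESeq2 and by limma-voom), and the median log2 fold change was 0.17. The share called higher was 50% of the list, 19.8% of all genes and 33% of the genes of mean level above 100 CPM. In either direction 39.9% of all genes were called. With the replicate block 10 were higher, while the block called 48.2% of all genes in either direction, 3410 of them higher. F3, which encodes tissue factor, the trigger of coagulation, stood at 120, 119 and 119 CPM in the controls, at 199, 197 and 208 CPM with p21 and at 127, 136 and 131 CPM with p16. It rose by 0.75 ± 0.036 with p21 (edgeR adjusted p = 3.56e-08). Tgfb2, which encodes a TGF-beta ligand, rose from 36.4 to 57.1 CPM (0.65 ± 0.067, edgeR adjusted p = 1.23e-05). Fjx1, a Golgi kinase of the Hippo input that also stands on the cadherin list, rose from 14.8 to 20.9 CPM (0.50 ± 0.060, edgeR adjusted p = 4.05e-05).

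With p16, edgeR called 5 of these 16 higher and 0 lower (6 and 0 at an unadjusted p under 0.05, 6 and 0 by DESeq2, 5 and 0 by limma-voom), with a median of 0.092. That was 31.2% of the list. Of all genes, 5.8% were called higher and 11.4% in either direction, and of those above 100 CPM 13.6% were called higher. The count of 5 fell to 1 without p16 replicate 2, and to 2 without control replicate 1, control replicate 3 or p16 replicate 1. It fell to 3 without control replicate 2 or p16 replicate 3 and with replicates 1 and 2 alone. Tgfb2 rose to 46.9 CPM (0.36 ± 0.067, edgeR adjusted p = 0.00513), Igfbp3, which binds insulin-like growth factors, from 7.20 to 9.28 CPM (0.37 ± 0.088, edgeR adjusted p = 0.0197) and Ccdc80, a secreted matrix protein gene, from 429 to 514 CPM (0.26 ± 0.065, edgeR adjusted p = 0.0234). The Igfbp3 and Ccdc80 calls each ended when control replicate 1, control replicate 3, p16 replicate 1 or p16 replicate 2 was left out (highest edgeR adjusted p = 0.111). Between p21 and p16, 7 were higher with p21 and 0 lower (8 and 0 at an unadjusted p under 0.05, 7 and 0 by DESeq2, 6 and 0 by limma-voom, and 4 and 0 with library totals alone). That was 43.8% of the list, against 6.15% of all genes called higher and 13.1% called in either direction. The count of 7 fell to 2 without p16 replicate 1 and to 3 without p21 replicate 1, p21 replicate 2 or p16 replicate 3. F3 was 1.54-fold higher with p21 (0.62 ± 0.036, edgeR adjusted p = 1.32e-06), Fjx1 1.21-fold (edgeR adjusted p = 0.0103) and Tgfb2 1.22-fold (edgeR adjusted p = 0.0150). The Fjx1 call was lost without p21 replicate 1 (edgeR adjusted p = 0.0545) and that of Tgfb2 without p16 replicate 1 (edgeR adjusted p = 0.0629).

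Of 18 genes of the Hippo kinase core and its activators, 4 rose and 4 fell with p21, with a median of -0.021. The share called, 44.4%, was near the 39.9% of all genes. With library totals alone 2 rose and 6 fell, and with the block 4 rose and 5 fell. The block called 50% of the list and 48.2% of all genes. Amot was among those that rose, and Wwc1, which encodes the upstream activator KIBRA, fell from 17.3 to 12.7 CPM (-0.45 ± 0.091, edgeR adjusted p = 0.00195). Lats1, the other LATS kinase gene, differed by -0.13 ± 0.054 (edgeR adjusted p = 0.0737) and was called lower with the block (edgeR adjusted p = 0.00991), with library totals alone and without p16 replicate 1. With p16, 1 gene passed, Amot (5.56% of the list, against 11.4% of all genes). With the block 2 rose and 1 fell with p16, the latter Wwc1 (-0.27, edgeR adjusted p = 0.00480), which also passed by DESeq2 (adjusted p = 0.0410). The block called 16.7% of the list with p16, against 21.4% of all genes. Amot and Taok2, which encodes a kinase upstream of the Hippo core, were higher with p21 than with p16, Amot by 0.23 ± 0.053 (edgeR adjusted p = 0.0135) and Taok2 by 0.17 ± 0.047 (edgeR adjusted p = 0.0330). The Taok2 call was lost with library totals alone, with only the 2 groups fitted, and without p21 replicate 1 or 2 or any single p16 library (highest edgeR adjusted p = 0.112). That of Amot was lost without p16 replicate 3 (edgeR adjusted p = 0.0511). With the block 3 were higher and 1 lower with p21 than with p16, the latter Frmd6 (-0.11, edgeR adjusted p = 0.0182). That was 22.2% of the list, against 22.6% of all genes with the block.

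Of 5 tested genes of the atypical cadherin input, Fjx1 rose and Dchs1, a protocadherin that binds FAT4, fell in both comparisons with the controls. The share called was 40% of these genes each time, against 39.9% of all genes with p21 and 11.4% with p16. Dchs1 stood at 15.3, 15.9 and 18.8 CPM in the controls, at 6.80, 7.35 and 10.2 CPM with p21 and at 10.7, 10.6 and 13.8 CPM with p16. Every p21 and p16 library lay below the controls. It fell by 1.04 on the log2 scale with p21 (SE 0.15, edgeR adjusted p = 1.58e-04) and by 0.52 with p16 (SE 0.14, edgeR adjusted p = 0.0390), and was lower with p21 than with p16 (-0.52 ± 0.15, edgeR adjusted p = 0.0390). Leaving out 1 library ended the p16 call of Dchs1 for each control library and p16 replicates 1 and 2 (highest edgeR adjusted p = 0.154). It ended the call against p16 for control replicate 2, p21 replicates 1 and 2 and each p16 library, and fitting only these 2 groups did so too. With the block, Fat4 (-0.12, edgeR adjusted p = 0.0181) was also called lower with p21, and Fat3 (0.68, edgeR adjusted p = 0.0305) higher with p16. Both encode atypical cadherins. Fjx1 with p16 (0.23 ± 0.060, edgeR adjusted p = 0.0303) lost its call with replicates 1 and 2 alone and without control replicate 2 or 3 or any single p16 library.

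Among 11 genes for partners that hold YAP and TAZ in the cytoplasm or degrade them, 4 rose and 3 fell with p21 (63.6% called, against 39.9% of all genes). The counts were 2 and 4 with library totals alone, and 5 and 4 with the block. The block called 81.8% of the list and 48.2% of all genes. Most of the 11 genes are abundant, and with p21 the main test called 58.8% of the genes of mean level above 100 CPM. Ywhag, a 14-3-3 gene, rose from 545 to 633 CPM (0.21 ± 0.029, edgeR adjusted p = 1.10e-04), while the 14-3-3 genes Ywhaq (-0.15 ± 0.033, edgeR adjusted p = 0.00292) and Ywhae (-0.13 ± 0.033, edgeR adjusted p = 0.00687) fell. With p16 only Ywhag of the 11 passed (0.18 ± 0.029, edgeR adjusted p = 0.00297), and with the block Ywhae was also called, as lower (edgeR adjusted p = 0.0302). Without the block 9.09% of the list was called with p16, against 11.4% of all genes. With the block the shares were 18.2% and 21.4%. Ywhaq was lower with p21 than with p16 (-0.11 ± 0.033, edgeR adjusted p = 0.0437), a call lost under 11 of 18 alternatives.

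**Figure D4:**
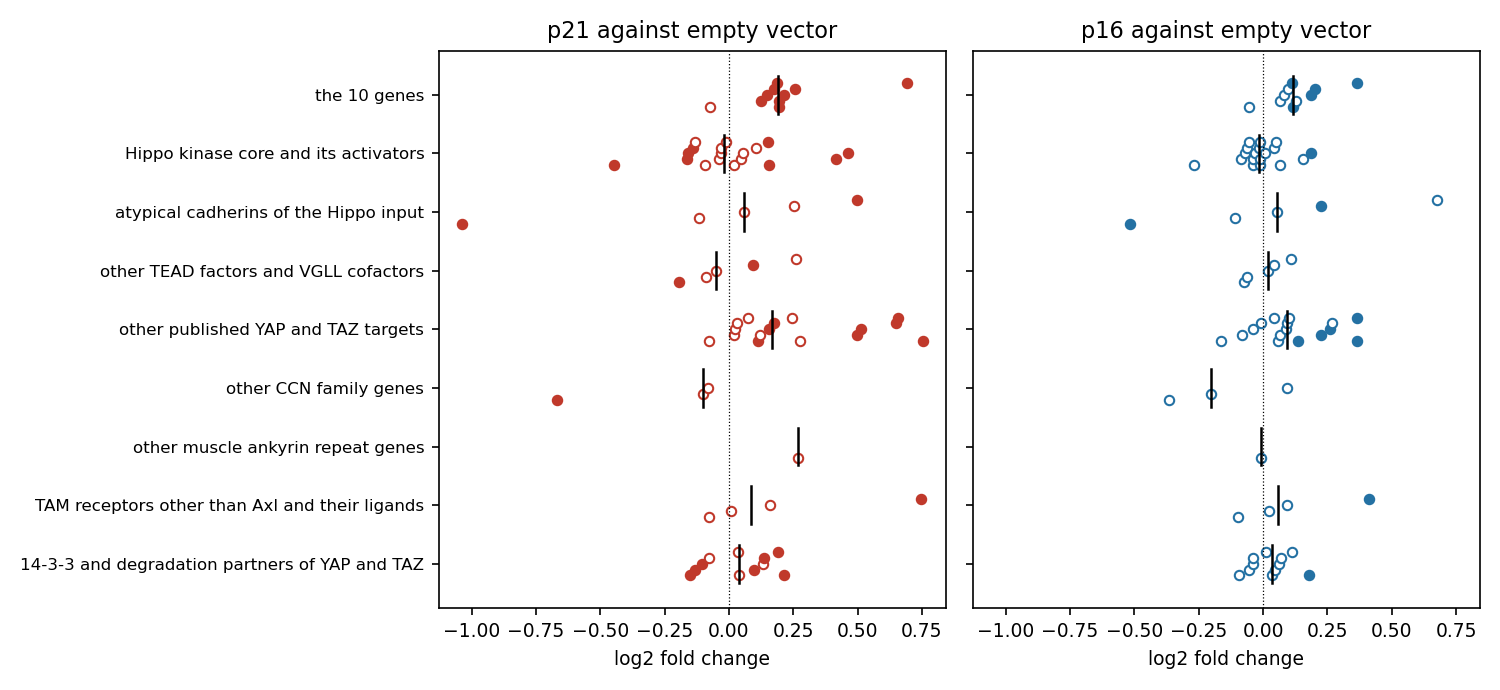
Log2 fold change of the 10 genes and of each pathway list, by edgeR, in p21 (left) and p16 (right) against the empty vector. Each point is a gene, filled where the adjusted p was under 0.05, and vertical bars are list medians. The medians of the 10 genes lie at 0.19 and 0.11 and those of the Hippo kinase list at -0.021 and -0.015.

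The genes whose pattern over the 9 libraries was closest were found for the 3 of the 10 genes with the smallest adjusted p with p21. Likeness was the mean absolute difference in log2 CPM after each gene was centred on its own mean, over 11277 genes. The pattern of Ankrd1 was closest to that of Gpc4 (mean difference 0.022), followed by Tgfb2 (0.037) and Adc (0.041). Gpc4, which encodes a glypican, stood at 207 CPM in the controls, 336 CPM with p21 and 264 CPM with p16. Lats2 was closest to Mapk14 (0.020), Aff1 (0.021) and Lhfp (0.022), and Ctgf to Ift22 (0.018), Rtfdc1 (0.021) and Yaf2 (0.022). Ift22 had the group means 10.6, 12.2 and 12.1 CPM in the controls, p21 and p16, level between p21 and p16 like Ctgf.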

How the data were processed

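The 9 RNA-seq libraries, 3 per group, were assigned to groups by the titles in the labels. The authors deposited a single table of raw counts with gene symbols as rows. The submitters' processing notes name TopHat2 2.0.14, Bowtie2 2.2.6 and featureCounts 1.4.6 of Subread, and the build mm10. Which annotation and strand option were used for counting is not given in the sources used here, and per the labels' protocols the kit was TruSeq RNA v2, which does not mark strand. Library totals were 44455730 to 63152239 counts. At these depths the 10 genes had at least 5574 counts in every library, and the precision is set by the spread between libraries.

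The filter filterByExpr (minimum count 10, minimum total 15) of edgeR 4.0.16 (R 4.3.3) left 14223 genes, followed by TMM scaling and 1 quasi-likelihood fit of all 9 libraries by group. The two-sided F test was adjusted by the Benjamini-Hochberg method over all genes tested, with a threshold of 0.05. Each SE is the size of the log2 fold change over the root of its F statistic, and no gene list was tested as a set. The fit was tested on simulated data with known changes, drawn with 1 spread for all genes, and the smallest were recovered least often. Even the smallest planted change was larger than those reported for the 10 genes other than Ankrd1. Recovery of changes of that size was therefore not tested. Log2 CPM for the likeness of patterns used a prior count of 2, and genes of mean log2 CPM of at least 1. Alternatives were edgeR with DESeq2 size factors, library totals alone, Cdkn1a and Cdkn2a left out, no filter, DESeq2 1.42.0, limma-voom (limma 3.58.1), only the 2 groups compared, the replicate block, replicates 1 and 2 alone, and leaving out single libraries. A group with 1 library left out was assumed to vary like the others, since the fit shares 1 spread.

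The replicate numbers are unexplained in the labels. After removal of group means, the correlation across genes was 0.126 to 0.361 between libraries that share a number and -0.246 to 0.106 between the others, and replicate numbers were therefore taken to pair the libraries. No block was used in the main test, so its SEs, intervals and p-values include the differences between replicate numbers. Blocked values stand beside the results for the 10 genes and the list genes named whose call they change.

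The 10 genes, the pathway lists, the alternatives and the rule for named genes were chosen with earlier results of these data known. The rule names the 10 genes, up to 3 genes per pathway list and comparison with the smallest adjusted p, markers at 0 counts, and the 3 genes closest in pattern to each of 3 of the 10. Other genes named, such as those that did not pass and single marker genes, were chosen after their values were seen. A gene that the rule names is not reported here. Dchs2 was not analysed here, and Vgll1, Vgll2, Fat2, Wisp3 and Ankrd2 did not pass the filter. Coordinates and exon lengths are from GENCODE M21 (GRCm38, the build mm10) and promoters from RefSeq (GRCm38.p6), under the symbols Ccn2 for Ctgf and Ccn1 for Cyr61. Python 3.11.15 with matplotlib 3.10.9 drew the figures.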

Additional observations from a re-analysis of the deposited data

How the results depend on the processing

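With p21 against the empty vector, the number of the 10 genes called was 9, and 7 to 9 with each library left out in turn. The counts of genes called in this comparison stayed within 1.5 times under every alternative run. With p16 the number was 5. It was 7 with the replicate block, 3 with library totals alone, 3 with replicates 1 and 2 alone, and 3 to 6 with a library left out. Over all genes, 1616 were called with p16, against 3044 with the replicate block and 759 to 1894 with a library left out. In p21 against p16, 2 of the 10 were called, against 1 with library totals alone, 1 without the filter, 1 with only the 2 groups fitted, 4 with the replicate block and 1 to 4 with a library left out. Over all genes 1858 were called in this comparison, 3214 with the block and 1074 to 1810 with a library left out.

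Of 540 values for the 10 genes over 30 results, 481 kept direction and side of the threshold, 34 lost the call, 16 gained it and 9 changed sign. All 9 were in p21 against p16 and of genes that did not pass there. With library totals alone they were Ctgf (-0.0087), Cyr61 (-0.012) and Amotl2 (-0.0055). With a library left out the values ran from -0.0075 to 0.022 for Ctgf, -0.013 to 0.016 for Cyr61, -0.018 to 0.048 for Amotl2 and -0.038 to 0.012 for Tead1. The cause was not tested. The replicate block ended no call of the 10 genes, and gained those of Lats2 and Axl with p16 and in p21 against p16. Of 558 values for the named list genes 69 lost the call and none reversed. The 10 genes had at least 5574 counts in every library, while differences of the size seen for Tead1 were within the spread between libraries.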

Other observations

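The replicate 3 libraries, which stood apart in Xist, also differed in some of the 10 genes in the same direction in each group. Axl was lowest in replicate 3 of the controls (958 CPM), of p21 (1067 CPM) and of p16 (1044 CPM). Wwtr1 was likewise lowest in replicate 3 of each group, at 131, 143 and 135 CPM. Ankrd1 was highest in replicate 3 of the controls (277 CPM) and of p21 (457 CPM), but not of p16 (339 CPM, against 341 CPM in replicate 2). These differences between replicate numbers were not tested.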
